A study of Mus musculus with 5 samples.

Results

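The miR-379 to miR-410 cluster is a run of microRNA (miRNA) hairpins in the imprinted Dlk1-Dio3 region of mouse chromosome 12. Its members were taken here as every miRNA name without an asterisk that belongs to 33 hairpins of the cluster, with the miRNAs antisense to Rtl1 left out. This rule found 36 names of the 593 miRNA names counted in the data. Hairpins miR-412 and miR-758 had no row in the files used here. The 36 names are called members below.

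The series holds 5 small-RNA libraries from C57BL/6 mouse testis, each a count of sequenced tags (distinct short reads) placed on mature miRNAs. Thy1+ cells (2 libraries) were freshly isolated with magnetic beads carrying an antibody to Thy1.2, a surface protein of spermatogonial stem cells that other testis cells also carry, and are enriched for stem cells rather than pure. Thy1- cells (2 libraries) are the fresh fraction depleted of stem cells and enriched for somatic cells. The culture (1 library) is a germ cell culture grown from the Thy1+ population for about 10 passages. No genotype or treatment separates the groups, the ages and the number of mice per library are not given in the labels, and nothing says that the replicates came from separate animals, so a p-value here measures only the spread between these samples. The groups follow the sample titles, since the Thy1- samples carry a stem cell name in another label.

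Genes of the Dlk1-Dio3 region are read from only 1 parental chromosome: the protein-coding genes from the paternal copy, and the long noncoding RNAs and miRNAs from the maternal copy. The miRNAs of this cluster are cut from a long noncoding transcript that includes the RNA Mirg, and a DNA region methylated in the male germ line sets the imprint. Each miRNA guides Argonaute to messenger RNAs mainly through its seed, bases 2 to 8 from the 5′ end. The cluster is best known from brain, where miR-134 acts in dendrites, and from embryo and placenta.

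The sequences of the most abundant members are shown because nearly all counts of the cluster fall on them. They are mature sequences from RefSeq (GRCm38.p6), 5′ to 3′, with the seed in capitals.
miR-379: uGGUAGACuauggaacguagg
miR-541: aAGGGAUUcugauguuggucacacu
miR-381: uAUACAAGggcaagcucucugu
miR-134: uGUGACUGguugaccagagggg
miR-411: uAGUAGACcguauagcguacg
miR-382: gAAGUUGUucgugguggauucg
miR-369-3p: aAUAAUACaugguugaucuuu
miR-380-5p: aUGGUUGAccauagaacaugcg
miR-300: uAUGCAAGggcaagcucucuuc
miR-410: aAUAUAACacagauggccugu
miR-376b: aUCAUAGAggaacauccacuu

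RefSeq held a mature sequence for 32 of the 36 members, with 13 on the 5′ arm and 19 on the 3′ arm of their hairpins and lengths of 21 to 25 nt. In all 32 the RefSeq 5′ end was the one used in the counting. No seed was shared by any pair of these 32 members. miR-300 and miR-381 are close copies: read from miR-300 to miR-381, they differ by G4A, U21G and C22U, counted from the 5′ end, so the first difference lies in the seed. No RefSeq entry was matched for miR-376c, miR-485, miR-487b and miR-654-5p. miR-654-5p rested on 5 single tags, each with 2 mismatches, and no exact tag.

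The 30 hairpins with a RefSeq hairpin entry lie on the plus strand at chr12:109709060-109743795 (GRCm38.p6). Mature miR-379 starts the cluster at chr12:109709065-109709085, and miR-410 ends it at chr12:109743764-109743784. In the GENCODE vM21 annotation of GRCm38, the noncoding gene Mirg spans chr12:109729764-109749460. By that annotation 23 members lie outside Mirg, 8 in its exons (miR-134, miR-382, miR-369-3p and miR-410 among them) and 5 in its introns, among them miR-541 at chr12:109742422-109742446.

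The libraries held 937009 and 947681 miRNA counts (Thy1+), 2548235 and 4909752 (Thy1-) and 5110008 (culture), with 510 to 543 names detected in each. Levels are given as counts per 1000000 miRNA counts of the library (CPM), and 1 count is worth more CPM in the Thy1+ libraries than in the others. As a check of the labels, 11 of 12 tested names of the embryonic and early germ cell group were higher in Thy1+ than in Thy1-. These 12 belong to the miR-290 to 295 cluster, since the group's miR-302 names had too few counts to be tested. Both arms of the gonadal miR-202 were lower. Of all 425 names tested, 20.5% were called higher and 7.76% lower. Of 9 mesenchymal names (miR-143, miR-145, miR-199 and miR-214) and 5 tested later germ cell names (the miR-34 and miR-449 group), 0 were called. Other cell types were present as well: all 6 tested white blood cell names were higher in Thy1+, where they summed to 2.07% ± 0.823 of counts (SD, n = 2) against 0.168% ± 0.0475 (SD, n = 2) in Thy1-. In bulk libraries, fewer cells of a type and less of an RNA per cell cannot be told apart.

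The cluster made up a few percent of all miRNA counts in fresh testis cells and far less in the culture. Its share was 2.48% (95% exact Clopper-Pearson interval 2.45 to 2.52) and 4.63% (4.58 to 4.67) in the Thy1+ libraries. It was 2.41% (2.39 to 2.43) and 2.83% (2.81 to 2.84) in the Thy1- libraries. In the culture it was 0.0837% (0.0812 to 0.0862), below all 4 fresh libraries. The Thy1+ mean of 3.56% ± 1.51 (SD, n = 2) was 42.5-fold the culture value, and the Thy1- mean of 2.62% ± 0.295 (SD, n = 2) was 31.3-fold. The fresh groups overlapped, and a two-sided exact permutation test between them gave p = 0.667, where 2 libraries against 2 allow no p under 0.333. The intervals cover counting error only, since tags are PCR copies without molecular identifiers.

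miR-379 and miR-541, near opposite ends of the cluster, led it in every library. miR-379 stood at 12456 and 22876 CPM in Thy1+, 14796 and 10848 CPM in Thy1- and 363 CPM in the culture. It ranked between 12 and 22 among the 593 names in the fresh libraries and at 106 in the culture. miR-541 stood at 6301 and 11792 CPM in Thy1+, 4770 and 10367 CPM in Thy1- and 267 CPM in the culture. Both were high in all fresh libraries, with the Thy1+ and Thy1- values interleaved, and low in the culture. Against Thy1+, the culture was lower by a fitted log2 fold change of -3.92 (SE 0.71) for miR-379 and -3.39 (SE 0.85) for miR-541, with adjusted p = 0.0105 and 0.0279 (edgeR's quasi-likelihood test, Benjamini-Hochberg over all names tested, two-sided).

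**Figure D1:**
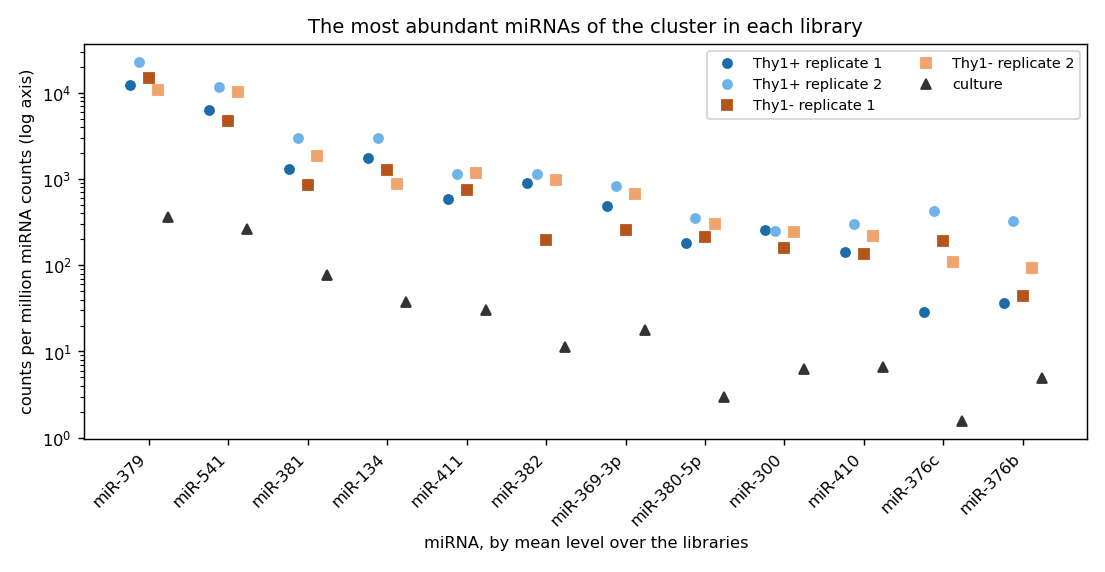
Level of the 12 most abundant members in each library, in CPM on a log axis, with 1 point per library. The culture lies below all 4 fresh libraries for every one of the 12, while Thy1+ and Thy1- points interleave for most of them.

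The next 5 members were about an order of magnitude below miR-379. miR-134, a regulator of dendritic spine growth in neurons, stood at 1748 and 3029.5 CPM in Thy1+, 1284 and 874 CPM in Thy1-, and 38.0 CPM in the culture. miR-381 stood at 1302 and 2963 CPM, 848 and 1834 CPM, and 76.9 CPM in the same order. For miR-134 both Thy1+ libraries lay above both Thy1- libraries, and for miR-381 they overlapped. miR-411 stood at 592 and 1139.6 CPM in Thy1+, 754 and 1168 CPM in Thy1-, and 29.9 CPM in the culture. miR-382 stood at 903 and 1141 CPM, 198 and 970.3 CPM, and 11.4 CPM. miR-369-3p stood at 493 and 839.9 CPM, 256 and 669.9 CPM, and 17.6 CPM. The first Thy1- library was the low one among the fresh libraries for miR-382 and miR-369-3p, but not for miR-411. All 5 were lower in the culture than in Thy1+ by the same test, with fitted log2 fold changes from -4.82 (SE 1.23, miR-382, adjusted p = 0.0284) to -3.09 (SE 0.90, miR-381, adjusted p = 0.0389).

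The remaining 5 of the 12 most abundant members were lower again in fresh cells. miR-380-5p stood at 180.4 and 350.3 CPM in Thy1+, 214 and 300.0 CPM in Thy1-, and 2.94 CPM in the culture. miR-300 stood at 256 and 247 CPM, 157 and 244 CPM, and 6.26 CPM. miR-410 stood at 144 and 299 CPM, 134 and 219 CPM, and 6.65 CPM. These 3 had fresh libraries within about the same range of each other and a culture library far below it. miR-376c stood at 28.8 and 428 CPM in Thy1+, 193 and 110.4 CPM in Thy1-, and 1.57 CPM in the culture. miR-376b stood at 36.3 and 324 CPM, 43.6 and 92.5 CPM, and 4.89 CPM. For both miR-376 members the first Thy1+ library was the lowest and the second the highest of the fresh libraries. Their standard errors were correspondingly wide: the culture was lower than Thy1+ by -5.40 (SE 1.59, adjusted p = 0.0410) for miR-376c, while miR-376b, at -3.44 (SE 1.29), did not pass (adjusted p = 0.0816, edgeR's quasi-likelihood test).

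Over the whole cluster, 24 of the 34 members tested were lower in the culture than in Thy1+, and 0 were higher. Among all 470 names tested in that comparison, 22.3% were called (13.4% lower and 8.94% higher). The median fitted log2 fold change of the members was -3.80, against -0.09 for all names, and all 34 estimates were below 0. Against Thy1-, 28 of 34 members were lower and 0 higher, with a median of -4.06, where 34.9% of all names tested were called (16.8% lower and 18.1% higher). The 2 comparisons share the culture library. Without a fit, the culture CPM was below all 4 fresh libraries for 34 of 36 members and for 46.7% of all names. The exceptions were miR-679 and miR-654-5p, which had no count in at least 1 fresh library either.

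Both comparisons rest on 1 culture library, whose spread was taken from the fresh groups. With either Thy1+ library left out, edgeR called 0 members lower against Thy1+, and 0 of all names in either direction, so that fit says nothing about the members apart from other names. In it, 28 and 25 members had an unadjusted p under 0.05, and the medians were -4.28 without the first library and -3.65 without the second. DESeq2 called 23 and 14 members lower, of 53 and 36 names called lower in all. Against Thy1-, edgeR called 12 members lower without the second Thy1+ library and 21 to 25 without any other.

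Of all 422 tested names with more than 3 culture counts, 48 were called lower than in Thy1+. The depth of the fall could be measured for the 16 members among them, and 14 of these 16 were called lower. Their Thy1+ mean CPM was between 20.6 and 146 times the culture CPM, with a median of 39.0. Against the first Thy1+ library alone the range was 7.42 to 79.5 with a median of 25.8, and against the second 18.3 to 274 with a median of 48.1. The upper end, miR-376c, rested on the second library: the first gave 18.4-fold and the second 274-fold. The largest fitted changes among them belonged to miR-376c, miR-382 (-4.82) and miR-380-5p (-4.79, SE 0.93, adjusted p = 0.0113). The smallest belonged to miR-369-5p (-2.69, SE 1.05, adjusted p = 0.0923, not past the test), miR-299 (-3.03, SE 0.79, adjusted p = 0.0292) and miR-381. Ratios of CPM exceed the fitted fold changes because the TMM scaling gave the culture a factor of 0.472 and the Thy1+ libraries 1.36 and 1.63. Scaled to total counts instead, the median of all names was -1.73 rather than -0.09 and that of the members -5.45, and all names called split into 9 higher and 164 lower rather than 42 and 63.

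A further 9 members had no culture count: miR-539, miR-409-5p, miR-329, miR-323-3p, miR-496, miR-667, miR-679, miR-666-3p and miR-654-5p. A count of 0 among 5110008 allows up to 3 counts, or 0.587 CPM. Set against that limit, the Thy1+ mean was at least 33.5-fold higher for miR-539 and at least 28.0-fold for miR-409-5p. For miR-329 the limit rested on the second Thy1+ library, at least 59.3-fold, since the first held 3 counts and gave at least 5.45-fold. miR-539 was seen at 24.5 and 14.8 CPM in Thy1+ and at 7.46 and 28.1 CPM in Thy1-, on 14 to 138 counts a library. miR-666-3p and miR-654-5p had too few counts to be tested. The remaining 11 members had 1 to 3 culture counts. With the tested members of no count put at their limits on the TMM scale, the median change of the members was -3.41 against Thy1+ and -3.80 against Thy1-.

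**Figure D2:**
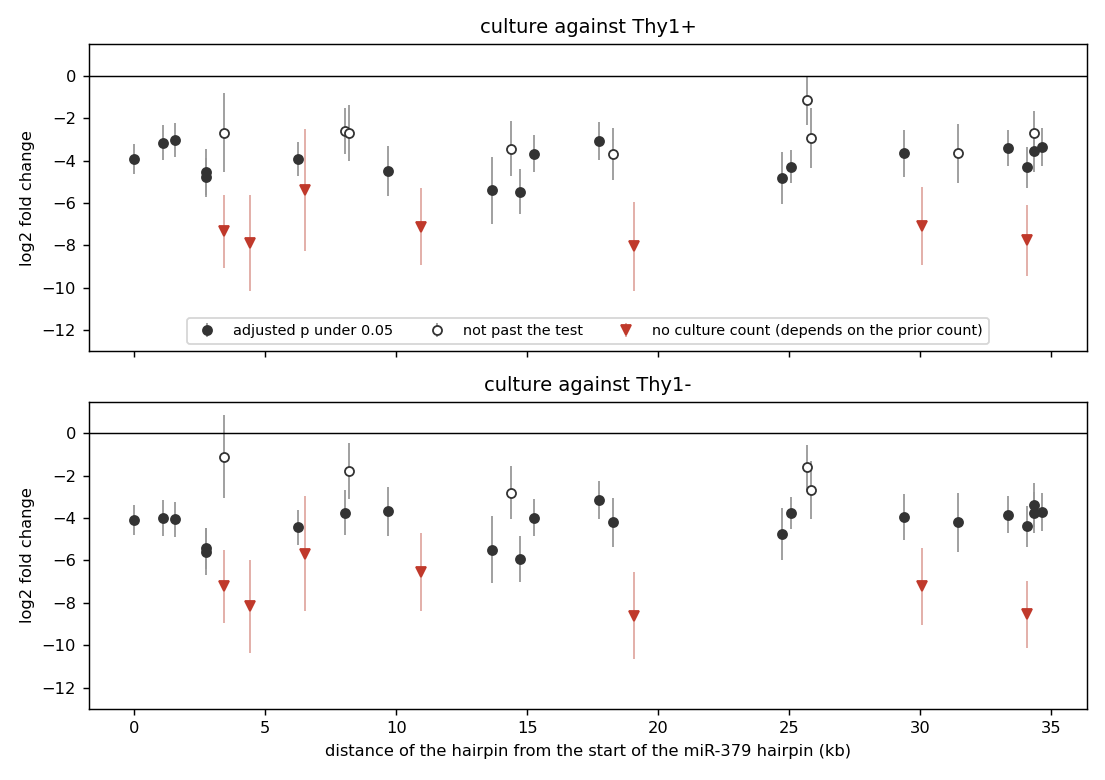
Fitted log2 fold change of each tested member, culture against Thy1+ (top) and culture against Thy1- (bottom), by distance of its hairpin from the start of the miR-379 hairpin in kb. Bars are standard errors, filled circles passed the test, open circles did not, and red triangles had no culture count; all 34 points lie below 0 in both panels.

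Members at both ends and in the middle of the cluster were lower in the culture. Outside Mirg 15 of 21 tested members were called lower than in Thy1+ with a median log2 fold change of -3.92, in Mirg exons 4 of 8 with a median of -3.45, and in Mirg introns 5 of 5 with a median of -4.31. Against Thy1- the counts were 17 of 21, 6 of 8 and 5 of 5. Some of the called members had no culture count, so the size of their fitted change is not a measurement. They were miR-409-5p and miR-496 in introns, and miR-539, miR-329, miR-323-3p and miR-667 outside Mirg. The intron member miR-154 had 2 culture counts. Of all names tested, 13.4% were called lower than in Thy1+ and 16.8% lower than in Thy1-. No test was made of the differences between these places, and neighbouring members may come from 1 transcript, so they are not independent.

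Some marker lists of other cell types were also lower in the culture and some were not. Of all names tested, 13.4% were called lower and 8.94% higher than in Thy1+, and 16.8% lower and 18.1% higher than in Thy1-. The mesenchymal names (miR-143, miR-145, miR-199 and miR-214) summed to 2.75% and 3.87% of counts in Thy1+, 4.68% and 3.14% in Thy1- and 6.53% in the culture, and 5 of 9 were called higher in the culture than in Thy1+, but 0 of 9 when scaled to total counts. Against Thy1- 3 of 9 were called higher, and again 0 when scaled to total counts. miR-199a-3p and miR-199b had the same counts in every library and were called in both comparisons, so their calls are not separate measurements. White blood cell names summed to 1.49% and 2.66%, 0.202% and 0.135%, and 0.0937%. Of these, 4 of 6 were lower and 0 higher in the culture than in Thy1+, and 0 of 6 were lower and 1 higher than in Thy1-. The 1 was miR-155, at 132 and 151 CPM in Thy1+, 9.81 and 6.72 CPM in Thy1- and 92.8 CPM in the culture. Gonadal miR-202 summed to 0.114% and 0.221%, 1.86% and 0.371%, and 0.0173%, with 0 of 2 arms lower in the culture than in Thy1+ and 2 of 2 lower than in Thy1- (median log2 fold change -4.41). Red blood cell names summed to 0.0252% and 0.0179%, 0.134% and 0.148%, and 0.00125%, with 1 of 3 lower in the culture than in Thy1+ and 3 of 3 lower than in Thy1- (median -6.41). The endothelial arms of miR-126 summed to 0.192% and 0.261%, 0.0964% and 0.168%, and 0.0562%, and neither passed against either fresh group. Scaled to total counts, 5 of 6 white blood cell names, 2 of 2 arms of miR-202 and 3 of 3 red blood cell names were called lower than in Thy1+. Against Thy1- these counts were 1, 2 and 3, and miR-126 had 0 in both. Which of these lists were called lower than in Thy1+ thus depends on the scaling. Germ cell lists moved in both directions. The miR-290 and miR-302 names summed to 0.782% and 1.82%, 0.118% and 0.0719%, and 0.0977%. The later germ cell names of the miR-34 and miR-449 group summed to 10.7% and 2.38%, 4.96% and 0.860%, and 19.7%. Nearly all of this last sum was miR-34c, at 195532 CPM in the culture. miR-449a instead lay below both Thy1+ libraries in the culture, and passed against neither fresh group. It stood at 699 and 152 CPM, 325 and 10.4 CPM, and 39.3 CPM. Of 5 tested later germ cell names, 0 were called lower, 1 was called higher than in Thy1+ and 3 higher than in Thy1-. Scaled to total counts, the higher calls were 0 and 1. Of the 22 names of the 5 lists of other cell types, miR-150* was the 1 with no count in a library, the culture. The part of these cells in the fall of the cluster was not tested.

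Thy1+ and Thy1- cells did not differ detectably in any member. Of 30 members tested, 0 passed (edgeR's quasi-likelihood test, smallest adjusted p = 0.219), 0 had an unadjusted p under 0.05, and DESeq2 and limma-voom also called 0. In the same comparison 28.2% of all 425 names tested were called (20.5% higher and 7.76% lower). Fitted changes ran from -1.09 to 0.96 on the log2 scale with a median of -0.25, against -0.07 for all names. Scaled to total counts, the medians were 0.35 and 0.51, so the sign of the cluster's median depends on the scaling. The fitted change of miR-379 was -0.11 (SE 0.47) and that of miR-541 was -0.39 (SE 0.58), within their errors.

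By CPM, 7 members (miR-134, miR-300, miR-323-3p, miR-485, miR-543, miR-667 and miR-668) were higher in both Thy1+ libraries than in both Thy1- libraries, and 0 were lower in both. Among all names the shares were 39.0% and 16.2%. Of the 7, all but miR-134 and miR-300 rested on only 3 to 13 counts in each Thy1+ library. Without either Thy1+ library edgeR called 0 of all names in this comparison, so those fits do not bear on the members. Over the alternatives run, miR-382 passed once, when the second Thy1- library was left out (log2 fold change 1.95, adjusted p = 0.0477, edgeR), and miR-376c once, in DESeq2 without the second Thy1+ library (-2.72, adjusted p = 0.0180).

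The 2 Thy1+ libraries differed from each other across the cluster. CPM was higher in the second than in the first for 31 of 36 members, and the cluster's share was 4.63% against 2.48%. The same count was not made over all names, so this shift is not shown to be particular to the cluster. The mesenchymal sum (3.87% against 2.75%) and the white blood cell sum (2.66% against 1.49%) were also higher in the second. So were the miR-290 and miR-302 sum (1.82% against 0.782%), the miR-202 sum (0.221% against 0.114%) and the miR-126 sum (0.261% against 0.192%), while the later germ cell sum (2.38% against 10.7%) and the red blood cell sum (0.0179% against 0.0252%) were lower. Their part in the difference was not tested. As a ratio of CPM, among the 34 members with a count in both Thy1+ libraries, the widest gaps were those of miR-376c (14.9-fold), miR-377 (11.1-fold, 4.27 and 47.5 CPM), miR-329 (10.9-fold, 3.20 and 34.8 CPM) and miR-376b (8.93-fold). These were singled out after their values were seen, and the first library held 3 miR-329 and 4 miR-377 counts.

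The internal make-up of the cluster varied little beside the fall of its total. miR-379 and miR-541 together held 75.5% and 74.9% of the cluster's counts in Thy1+, 81.1% and 75.0% in Thy1-, and 75.2% in the culture. The 12 most abundant members held 97.9% to 98.6% in every library. The balance between the leading members moved more: miR-379 counts were 1.98 and 1.94 times those of miR-541 in Thy1+, 3.10 and 1.05 times in Thy1-, and 1.36 times in the culture. The Thy1- libraries lay on either side of all others in this ratio. Spearman's rho of member levels was 0.890 to 0.978 between fresh libraries and 0.867 to 0.899 between the culture and a fresh library, over 36 members that share library depth, as a description. Over all names it was 0.924 to 0.968 and 0.869 to 0.915, so the kept ranking is not particular to the members.

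**Figure D3:**
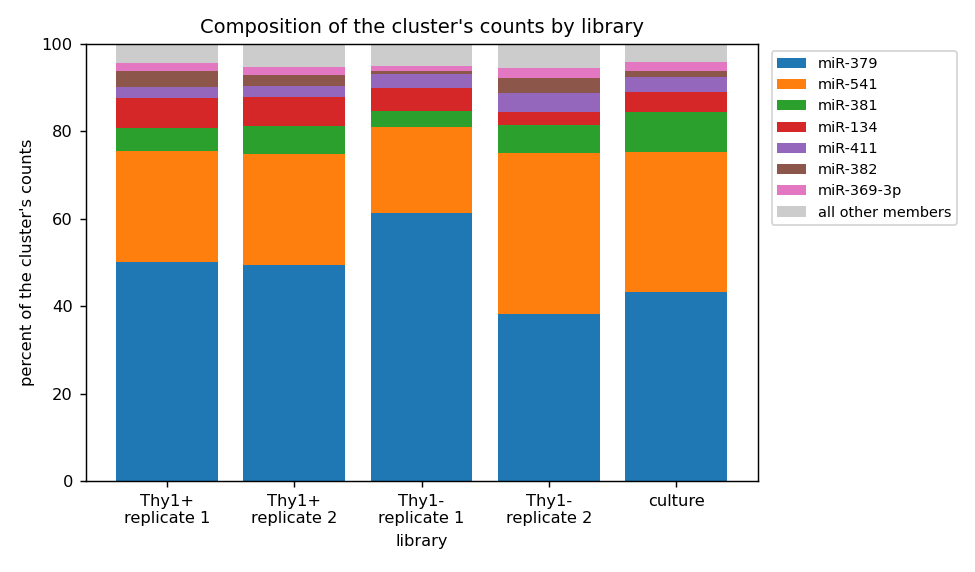
Percent of the cluster's counts held by each of the 7 most abundant members and by all others, with 1 bar per library adding up to 100 percent. miR-379 and miR-541 fill 74.9% to 81.1% of every bar, and the first Thy1- library has the largest miR-379 part.

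The ends of the tags gave a readout apart from the levels. Most miR-541 tags in fresh cells stopped short of its annotated 25 nt: 26.5% and 20.4% reached the last base in Thy1+ and 20.05% and 19.1% in Thy1-. In the culture 52.3% of 1364 tags did (95% exact interval 49.6 to 55.0), above all 4 fresh libraries. The shorter form ending at base 22 held 23.7% to 32.1% of tags in the fresh libraries and 16.5% in the culture. Over all names, the share of tags that reached the annotated 3′ end was 71.7% in the culture and 63.8% to 71.2% in the fresh libraries. Tags of up to 25 nt are listed, so longer forms of miR-541 would not be seen.

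miR-379 tags nearly all began at the annotated 5′ end in fresh cells (95.05% to 97.2%), and 87.6% did in the culture (95% exact interval 86.0 to 89.1). The others began mostly at base 5, inside the seed: 2.71% and 2.11% in Thy1+, 4.24% and 3.33% in Thy1-, and 11.3% (9.92 to 12.9) in the culture. In CPM the form starting at base 5 was nonetheless lowest in the culture, at 41.1 CPM against 337 to 627 CPM in the fresh libraries. Both end readouts were chosen after their values were seen, and with 1 culture library neither has a replicate check.

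Arms of the same hairpin kept a similar balance in several pairs but not in all. miR-411 held 87.3% to 93.0% of the counts of its 2 arms over the 5 libraries, miR-369-3p 94.7% to 97.9% of its pair, and miR-382 at least 99.4%. miR-376a held 37.7% and 55.0% in Thy1+ and 40.3% and 55.5% in Thy1-, so the larger arm differed between replicates. In the culture it held 33.3% (7.49 to 70.1). miR-154 was the minor arm in every library, at 11.8% to 41.0%. miR-376b was the minor arm of its pair in every library, at 27.0% and 44.4% in Thy1+, 18.6% and 36.2% in Thy1-, and 45.5% (32.0 to 59.4) in the culture. miR-376c, by contrast, held 93.1% to 98.5% in the fresh libraries. The asterisk arms miR-376b* and miR-376c* share the seed UGGAUAU and nearly all their other bases. The asterisk arms of the cluster also fell: 4 of 7 tested were lower in the culture than in Thy1+, with a median log2 fold change of -3.09, and 0, like 0 of all names, by edgeR with either Thy1+ library left out. With no library left out, 13.4% of all names tested were lower in the culture than in Thy1+. miR-376b*, the most abundant of these arms, stood at 98.2 and 405 CPM in Thy1+, 190 and 163 CPM in Thy1-, and 5.87 CPM in the culture.

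Other miRNAs of the Dlk1-Dio3 region, upstream of miR-379 and including the Rtl1 antisense miRNAs, changed in the same direction. Of 17 tested, 12 were lower in the culture than in Thy1+, where 13.4% of all names were. Against Thy1- 16 of the 17 were lower, where 16.8% of all names were. The medians of the 17 were -4.71 and -4.95. Their most abundant member, miR-127, stood at 3388 and 8664 CPM in Thy1+, 4717 and 5264 CPM in Thy1-, and 79.1 CPM in the culture. miR-434-3p stood at 1138 and 2498 CPM, 1343 and 863 CPM, and 13.9 CPM, and miR-434-5p at 1036 and 1312 CPM, 783 and 1338 CPM, and 14.1 CPM. As in the cluster, edgeR called 0 of them, like 0 of all names, with either Thy1+ library left out (medians -4.90 and -5.11), and DESeq2 called 9 and 8. Between Thy1+ and Thy1-, 0 of 14 passed.

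Imprinted miRNAs of other regions gave other counts, and the difference from the cluster was not tested. Of 6 tested, 0 were lower in the culture than in Thy1+, where 13.4% of all names were, and 1 was higher: miR-335-5p, from an intron of the imprinted gene Mest, at 271 and 732 CPM in Thy1+, 480 and 337 CPM in Thy1-, and 2064 CPM in the culture (log2 fold change 3.75, SE 0.67, adjusted p = 0.0105, edgeR). Scaled to total counts, miR-335-5p did not pass (log2 fold change 2.04, adjusted p = 0.0576), and 0 of the 6 were higher and 1 lower. With the first or second Thy1+ library left out it did not pass either (adjusted p = 0.0709 and 0.123, edgeR). Against Thy1- 2 of 6 were higher and 0 lower: miR-335-5p (3.40, SE 0.66, adjusted p = 0.00715) and miR-335-3p (2.43, SE 0.74, adjusted p = 0.0337, edgeR). miR-335-3p stood at 618 and 282 CPM in Thy1+, 40.4 and 49.5 CPM in Thy1- and 119 CPM in the culture, and gave -0.31 (SE 0.77) against Thy1+. miR-296-3p, from the Gnas region, at 1572 and 1111 CPM in Thy1+ and 175 CPM in the culture, gave -1.31 (SE 0.78) and did not pass.

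Several hairpins of this cluster are known to be edited by ADAR enzymes, which turn adenosine into inosine, read as G. A share of tags with G at an annotated A was therefore taken at bases 2 to 15 of the members with a RefSeq sequence, given at least 100 counts. miR-376c had no such sequence and was left out, despite 406 counts in the second Thy1+ library and 491 and 542 in the Thy1- libraries. Among the positions examined, the 1 at 5% or more in any library was A5G of miR-411, counted from the 5′ end, inside the seed. The annotated and the G form are shown with the base in capitals.
annotated miR-411: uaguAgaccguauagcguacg
form with G: uaguGgaccguauagcguacg

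Tags with A5G made up 2.56% (14 of 547, 95% exact interval 1.41 to 4.26) and 2.86% (30 of 1050, 1.94 to 4.05) of miR-411 tags in Thy1+. They made up 2.39% (44 of 1840, 1.74 to 3.20) and 1.72% (97 of 5628, 1.40 to 2.10) in Thy1-. In the culture they made up 10.5% (16 of 152, 6.14 to 16.5). The culture interval lay above those of all 4 fresh libraries, and the difference in share was not tested. The G form itself was lower in the culture, at 3.13 CPM against 14.9 to 31.7 CPM in fresh cells, so the share was high beside a larger fall of the annotated form. All 16 culture tags were otherwise equal to miR-411, in 2 distinct tags.

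**Figure D4:**
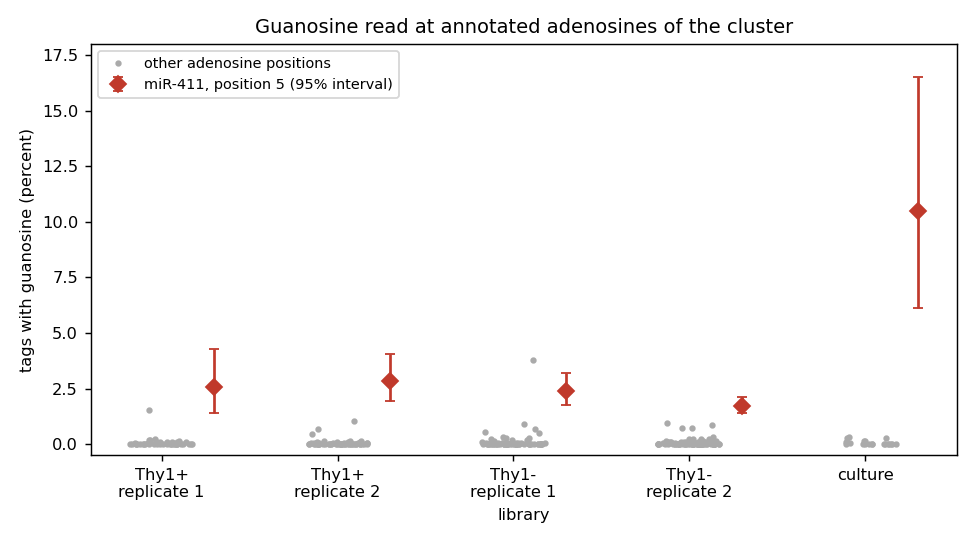
Percent of tags with guanosine at annotated adenosines of the members with a RefSeq sequence, bases 2 to 15, in each library. Grey points are single positions with at least 100 counts and red diamonds are miR-411 position 5 with 95% exact intervals; the culture diamond is at 10.5% and the fresh ones at 1.72% to 2.86%.

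Among 21 such positions of 5 members in the culture, A5G of miR-411 was the 1 at 5% or more, and over all names 3 of 877 (0.342%) were. The other members stayed lower. miR-381 showed A4G in 1.54% and 0.694% of tags in Thy1+, 0.921% and 0.723% in Thy1-, and 0.263% (1 of 380) in the culture. Since miR-300 and miR-381 differ by G4A, a shortened miR-381 tag with A4G can equal a miR-300 tag and be counted there. miR-376b showed A6G in 1.02%, 3.77% (4 of 106) and 0.718% of tags in the second Thy1+ and the Thy1- libraries, on 3 or 4 tags each. These miR-381 and miR-376b positions were chosen after their values were seen.

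A different mismatch on the asterisk arm of miR-411 matched a neighbour. Tags counted as miR-411* carried C10T in 23 of 81 and 31 of 110 tags in Thy1+, 58 of 182 and 98 of 431 in Thy1-, and 7 of 19 in the culture. RefSeq's miR-379-3p differs from miR-411-3p at that base, and of the tags with C10T, 21, 28, 51, 70 and 6 were equal to miR-379-3p or to a part of it. The capitals mark the 2 differences.
miR-411-3p: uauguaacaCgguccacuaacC
miR-379-3p: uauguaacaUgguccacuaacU
Read from miR-411-3p to miR-379-3p they are C10U and C22U. The counting used here had no name for miR-379*, so part of the miR-411* counts carry the sequence of the passenger arm of miR-379. The arm shares of miR-411 given above include these tags.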

How the data were processed

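Per the file headers, each deposited table holds tags placed on mature mouse miRNAs of miRBase 12.0 with raw tag counts and up to 2 mismatches; tags run from 15 to 25 nt. DESeq is named in the submitters' processing notes. The sources used here do not name an adapter trimmer, an aligner or a genome build. Counts were summed per miRNA name; a tag tied between names was split equally and sums were rounded. Names were compared with edgeR 4.0.16 (R 4.3.3; TMM, filterByExpr, quasi-likelihood test, adjusted p under 0.05), Thy1+ against Thy1- in the 4 fresh libraries and the culture in a fit of all 5. Alternatives were DESeq2 1.42.0, limma 3.58.1 (voom), other scaling, filters, tag rules, a replicate block and left-out libraries. The tests were checked on simulated data. Substitution shares left out tags with an uncalled base, tied tags and tags not starting at the annotated 5′ end. Members were named by a rule: the 12 most abundant, those past the test in Thy1+ against Thy1-, the 3 largest and 3 smallest culture changes, those without a culture count, and positions with at least 5% A-to-G. The members and lists were chosen with earlier results of these data known. Sequences and hairpin positions are RefSeq's (GRCm38.p6).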

Additional observations from a re-analysis of the deposited data

How the results depend on the processing

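Counts of members called lower in the culture than in Thy1+ were 19 to 31 under other scalings, filters, tag rules, DESeq2 and limma-voom, against 24. With 1 library left out they ran from 0 to 26: 0 without either Thy1+ library by edgeR, 16 and 26 without the first or second Thy1- library, and, in an alternative added after seeing the data, 23 and 14 by DESeq2 without the first or second Thy1+ library. A group left with 1 library is assumed to vary like the others. Against Thy1- the count was 23 to 29 under other settings, against 28, and 12 to 25 with 1 library left out by edgeR (26 and 27 by DESeq2), the 12 without the second Thy1+ library. Between Thy1+ and Thy1- the count ranged from 0 to 1 with a library left out and was 0 under the other settings. In both comparisons with Thy1+, the edgeR fits without either Thy1+ library called 0 of all names, so a count of 0 members there shows no stability. No direction of a named member that passed its test was reversed.

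The cluster's share with the 10 most abundant names taken out of the denominator was 4.12% and 6.86% (Thy1+), 5.61% and 6.59% (Thy1-) and 0.259% (culture), and with tied tags left out it was 0.0878% in the culture. The shares of A5G in miR-411 moved by at most their counting error.

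The labels do not say whether libraries with the same replicate number were prepared together. Deviations of the first and second libraries correlated at -0.063 between Thy1+ and Thy1- over 425 names. With 1 difference per group, this cannot show whether they were. With the replicate block 0 members passed, and all names called went from 120 to 32. No paired analysis of the culture was possible because it shares fewer than 2 replicate numbers with either fresh group.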
